A study of Xenopus laevis with 4 samples.

Results

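Single-cell transcriptomes of Xenopus laevis gastrula ectoderm were made in 2 separate experiments, and the second experiment was compared here with the first across both kinds of embryo. Each experiment gave 1 library of cells from in vitro fertilized (IVF) embryos and 1 library from nuclear transfer (NT) embryos, so all 4 libraries of the series entered the comparison, 2 from each experiment. They are called IVF1 and NT1 for experiment 1 and IVF2 and NT2 for experiment 2. All embryos were at stage 12, and each library came from the pooled ectoderm of 5 embryos, with 2500 viable cells submitted for droplet capture. NT embryos received endoderm nuclei of neurula donors in enucleated eggs, and only NT embryos that could not be told from IVF embryos by eye at stage 12 were taken, so they are a selected set. A gene counted as differing with the experiment when it passed the test in a model that held the treatment (IVF or NT) constant, and each gene was also read within IVF alone and within NT alone.

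The frog gastrula ectoderm is the tissue that forms epidermis and the nervous system. At this stage its cells carry transcripts made by the mother during oogenesis together with transcripts that the embryo itself has made since it switched on its own genome. Transcripts that depend on the mother can vary between clutches, and every library here held several embryos, so no single embryo can be followed. X. laevis is also allotetraploid, and many of its genes exist as a pair of similar copies whose reads can be hard to assign, so a value for 1 copy carries that uncertainty. In nuclear transfer the egg cytoplasm has to reset a donor nucleus that was already running another cell's program.

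The libraries held 566 (IVF1), 514 (NT1), 1275 (IVF2) and 1050 (NT2) cells, 3405 in all, with total UMIs from 16543235 to 58592836. A UMI (unique molecular identifier) stands for 1 captured mRNA molecule. Experiment 2 was the deeper in both treatments, with a median of 44371 (IVF2) and 45100.5 (NT2) UMIs per cell, while experiment 1 had 27266.5 (IVF1) and 23346 (NT1). No cell barcode was shared between any of the libraries. The labels name 2 chemistries of the capture kit without saying which library had which, and do not say whether the experiments used different parents or days. By the study's methods all libraries were pooled for sequencing, and each chemistry had its own version of the counting software. Experiment, clutch, kit chemistry and counting software therefore cannot be told apart below. Depth differed with the experiment too, and was made equal only where thinned UMIs are named. Nothing says that the libraries of an experiment came from separate clutches either, so p-values measure only the spread between these 4 libraries. The genes carry identifiers that could not be matched to symbols with the reference tables used, so the label "ectoderm" could not be checked against marker genes, no gene role can be given and no gene group was tested.

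Experiment 2 differed from experiment 1 in the level of a large share of the genes. Of 18674 genes tested, 5638 (30.2%) had a Benjamini-Hochberg adjusted p under 0.05 in the quasi-likelihood test of edgeR. Of these, 3194 (17.1% of the genes tested) were higher in experiment 2 and 2444 (13.1%) were lower. The same model called 0 genes (0.0%) for NT against IVF, where 1243 had an unadjusted p under 0.05 and DESeq2 called 109. Among the genes called higher in experiment 2, the median log2 fold change was 1.37, and 773 genes exceeded 2 log2 units. Among those called lower the median was -1.51, and 631 genes exceeded 2 log2 units. The genes called higher took up 37.8% (IVF1) and 38.6% (NT1) of all UMIs in experiment 1, against 59.3% (IVF2) and 57.6% (NT2) in experiment 2. The genes called lower took up 9.38%, 9.06%, 2.67% and 3.18% in the same order. For both sets the libraries of an experiment lay close together and the experiments did not overlap, which the choice of the genes itself favours.

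The number of calls rested on particular libraries. With 4 libraries and 3 coefficients the model keeps 1 residual degree of freedom and borrows most of its estimate of spread from other genes. When IVF1 was left out, the fit without a treatment term called 0 genes in edgeR, with 4228 at an unadjusted p under 0.05, and when NT1 was left out it called 14. Without IVF2 it called 6386 genes and without NT2 8549. The fits without a library of experiment 1 take their spread from IVF2 and NT2, which differed from each other by a median absolute log2 difference of 0.28 over the 8524 genes of at least 10 CPM, against 0.15 for IVF1 and NT1. With all libraries thinned to the smallest total the values were 0.29 and 0.15. Every same-experiment pair and same-treatment pair differed by more than counting noise (chi-square per gene 17.5 or more), so no library was counted as a repeat of another.

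The split between higher and lower genes depended on the scaling. The calls above used TMM scaling, which sets the bulk of genes to no change and gave a median log2 fold change over all genes tested of -0.01. Scaled to library totals alone, the median was -0.56, a shift of 0.55 log2 units, and 1504 genes were called higher against 5987 lower. The share of calls in the higher direction was 56.7% with TMM and 20.1% with library totals. The genes called changed too: of the 5638 called with TMM, 3948 were also called with library totals. Directions below are therefore relative to the bulk of genes under TMM unless library totals are named.

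The direction of the difference changed with the level of the gene, expressed as CPM (a gene's UMIs scaled to a common library total) averaged over the 4 libraries. Among 3199 genes under 1 CPM, 230 were called higher and 261 lower, with a median log2 fold change of -0.21. Among 6951 genes from 1 to 10 CPM, 747 were called higher and 1079 lower, with a median of -0.21. From 10 to 100 CPM the calls were 1428 higher and 990 lower of 6705 genes, with a median of 0.06. From 100 to 1000 CPM they were 714 higher and 114 lower of 1702 genes, with a median of 0.45. Of the 117 genes at 1000 CPM or more, 75 were called higher and 0 lower, with a median of 0.78. Under library totals the 5 medians were -0.75, -0.76, -0.49, -0.10 and 0.23, and 17 of the most abundant genes were then called lower and 44 higher. A change of scaling moves all genes by nearly the same amount, so it bears on where the medians cross 0 and not on how they differ between levels.

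**Figure D1:**
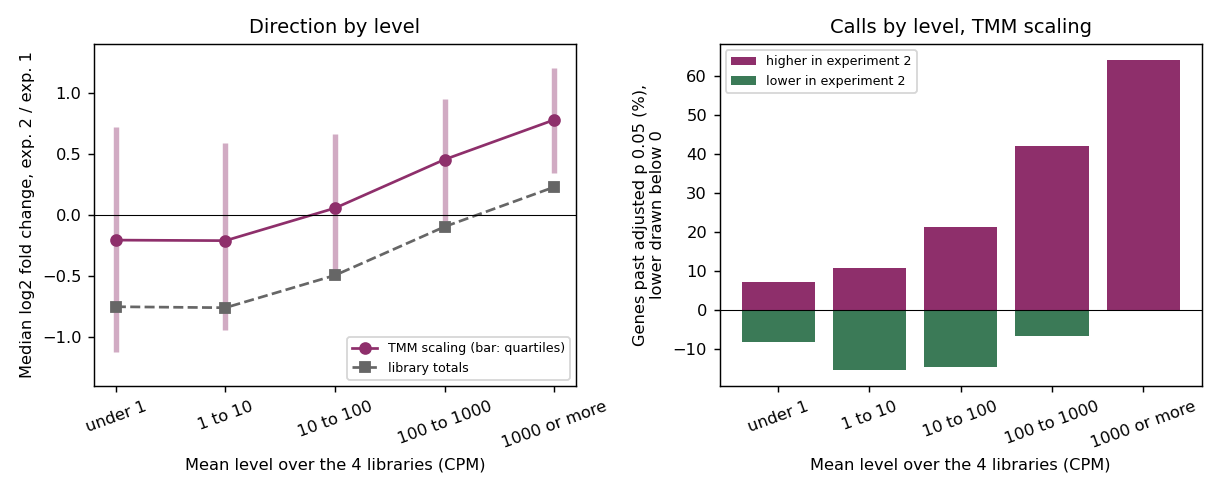
Genes grouped by mean level over the 4 libraries in CPM. Left, the median log2 fold change of experiment 2 over experiment 1 with TMM scaling (circles, bars span the quartiles over genes) and with library totals (squares). It rises from -0.21 to 0.78 with TMM and from -0.75 to 0.23 with totals. Right, the percentage of genes in each group called higher (above 0) or lower (drawn below 0) in experiment 2 with TMM, where the most abundant group has 75 genes called higher and 0 called lower.

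The UMIs of experiment 2 were gathered on fewer genes. The 10 most abundant genes of each library held 6.82% (IVF1) and 7.19% (NT1) of its UMIs in experiment 1, while those of experiment 2 held 9.70% (IVF2) and 10.0% (NT2). The 1000 most abundant held 59.7%, 59.8%, 68.6% and 66.9%. The libraries of the 2 experiments did not overlap in either share. Of the 100 most abundant genes of a library, 91 were shared by IVF1 and NT1 and 86 by IVF2 and NT2, and 78 to 81 were shared by libraries of different experiments.

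Cells of experiment 2 also showed fewer genes at equal depth. Each cell was thinned at random to 6000 UMIs, and the genes with a UMI were counted. The median cell then showed 2777 (IVF1) and 2735.5 (NT1) genes in experiment 1, but 2324 (IVF2) and 2390 (NT2) in experiment 2. The difference between experiments was -399.25 genes, from 2756.25 ± 29.3 in experiment 1 to 2357 ± 46.7 in experiment 2 (SD, n = 2 libraries each). The libraries of the experiments did not overlap, but an exact, 2-sided permutation test of 2 against 2 libraries cannot go below 0.33, the p obtained here. Only 0.344% of the 2325 cells of experiment 2 lay above the median cell of experiment 1. Without thinning the direction turned: the deeper cells of experiment 2 showed a median of 6375 (IVF2) and 6770 (NT2) genes against 6306 (IVF1) and 5836 (NT1), a difference of 501.5. Thinning equalizes the number of UMIs but not the way they were captured, and the part of the kit chemistry was not tested.

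Fewer genes were found in at least 10% or 50% of the cells in experiment 2, but not in at least 90%. At 6000 UMIs per cell, 6920 (IVF1) and 6964 (NT1) genes were found in at least 10% of the cells in experiment 1, against 5618 (IVF2) and 5856 (NT2). For genes in at least 50% of cells the counts were 1618, 1564, 1354 and 1366. For genes in at least 90% of cells they were 360, 336, 397 and 366, in the same order. Here both libraries of experiment 2 lay above both of experiment 1. The values of NT2 (366) and IVF1 (360) were, however, closer than those of the libraries within either experiment.

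**Figure D2:**
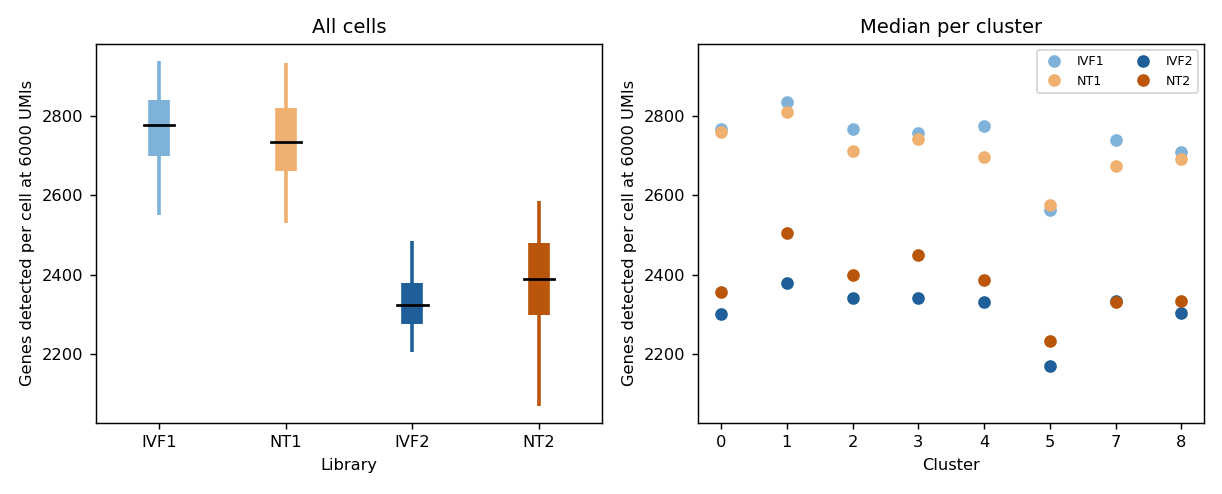
Genes detected per cell after thinning each cell to 6000 UMIs. Left, all cells of each library (thick bar, quartiles; thin bar, 5th to 95th percentile; line, median), with medians of 2777, 2735.5, 2324 and 2390. Right, library medians within 8 cell clusters, where in each cluster both medians of experiment 1 lie above both of experiment 2.

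The size of the experiment difference was set beside that of the treatment by reading each pair of libraries gene by gene, over the 8524 genes that averaged 10 CPM or more. The median absolute log2 difference was 0.66 between IVF2 and IVF1 and 0.54 between NT2 and NT1. It was 0.15 between NT1 and IVF1 and 0.28 between NT2 and IVF2. Both experiment pairs were thus larger than both treatment pairs, with means of 0.60 ± 0.08 and 0.22 ± 0.09 (SD over 2 pairs), a ratio of 2.77. Put as folds, the typical gene differed 1.52-fold between experiments and 1.16-fold between treatments. The pairs use the same 4 libraries, so these values are a description and were not tested. They are read from whole libraries, so they include any difference in the mix of cells.

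Large differences followed the same order. More than 1 log2 unit separated 2659 genes (31.2%) between IVF2 and IVF1 and 1866 (21.9%) between NT2 and NT1. Between treatments the counts were 128 (1.5%) in experiment 1 and 548 (6.43%) in experiment 2. The treatment pair was therefore wider in experiment 2 than in experiment 1, and the experiment pair wider within IVF than within NT. Pearson correlations of log levels across genes, which are not independent replicates, were 0.979 for IVF1 with NT1 and 0.953 for IVF2 with NT2, against 0.830 for the IVF pair and 0.872 for the NT pair. The fitted treatment change exceeded the fitted experiment change in 1525 of the 8524 genes (17.9%). Each fitted change combines 2 pairs, and pairs that go opposite ways partly cancel. The treatment pairs agreed less in direction than the experiment pairs (below), so this comparison lowers the treatment.

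**Figure D3:**
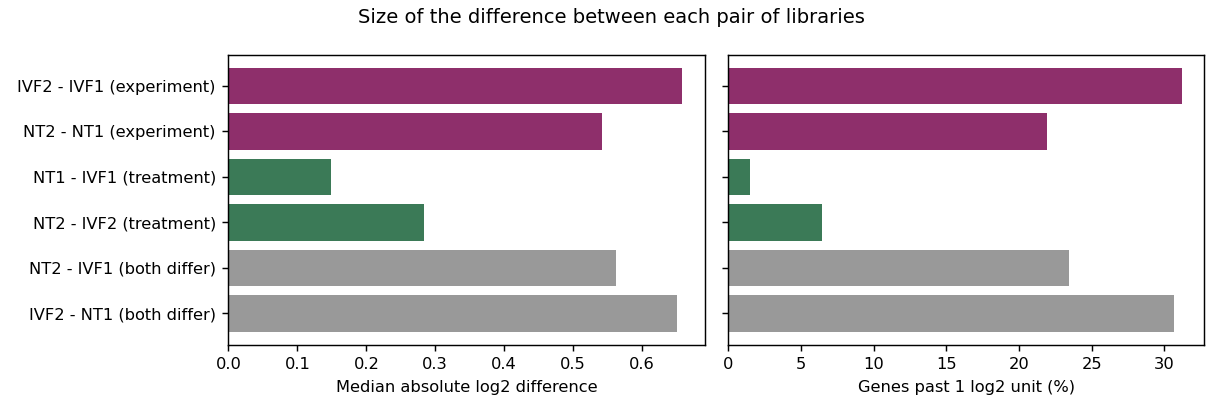
The difference between each pair of libraries over 8524 genes of at least 10 CPM, as the median absolute log2 difference (left) and the percentage of genes past 1 log2 unit (right). The experiment pairs reach 0.66 and 0.54, the treatment pairs 0.15 and 0.28.

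Most of the experiment difference was common to both treatments. The IVF pair and the NT pair have no library in common, and 82.8% of the 8524 genes had the same sign in both. Past 1 log2 unit in both pairs, 974 genes were higher and 431 lower in experiment 2 (1405 together, 16.5%), and 12 went opposite ways. These 1405 genes were 52.8% of those past 1 log2 unit within IVF and 75.3% of those within NT. For NT against IVF, read in experiment 1 and again in experiment 2, 49.4% of the genes had the same sign. Past 1 log2 unit in both, 14 were higher and 30 lower in NT (44 together, 0.516%), and 21 went opposite ways. Across genes the experiment differences within IVF and within NT had a Pearson correlation of 0.801, and the treatment differences of the 2 experiments one of 0.0949. With library totals the split of the genes that moved the same way past 1 log2 unit turned to 313 higher and 1329 lower.

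**Figure D4:**
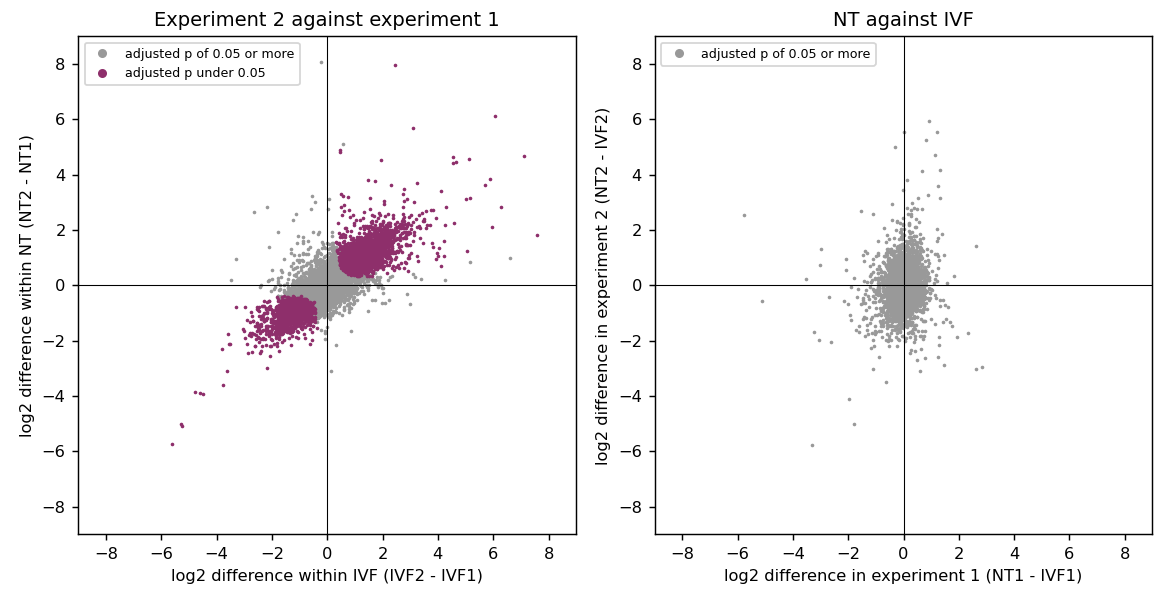
Each point is 1 of 8524 genes of at least 10 CPM. Left, the log2 difference of experiment 2 minus experiment 1 within IVF (x axis) and within NT (y axis), with genes at an adjusted p under 0.05 in colour. The points follow the diagonal, with a Pearson correlation of 0.801 across genes. Right, NT minus IVF in experiment 1 (x axis) and in experiment 2 (y axis), where the correlation is 0.0949 and 0 genes passed.

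Genes picked within 1 treatment kept their direction in the other, whose libraries had no part in the choice. Of 1699 genes more than 1 log2 unit higher in IVF2 than in IVF1, 97.8% were higher in NT2 than in NT1, with a median log2 difference of 1.1. Of 941 genes picked as lower in IVF2, 95.3% were lower in NT2, with a median of -0.93. In the other direction, 1285 genes picked as higher in NT2 had a median of 1.44 in IVF, and 580 picked as lower had a median of -1.38. The medians over all genes read in this way were 0.16 in NT and 0.14 in IVF. Of all 8407 genes read in NT, 4870 were higher in NT2 and 3537 lower. Past 1 log2 unit again in NT were 57.2% of the genes picked as higher in IVF2 and 44.5% of those picked as lower. For the treatment the carry-over was smaller: 35 genes picked as higher in NT1 had a median of 0.18 in experiment 2 and 81 picked as lower had a median of -0.40, while 218 and 308 genes picked in experiment 2 had medians of 0.08 and -0.09 in experiment 1. Of the treatment genes picked in experiment 1, 60.0% (higher) and 67.9% (lower) kept their direction. For those picked in experiment 2 the shares were 58.3% and 56.5%. These are descriptions of picked genes, with no test.

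The difference was also read cell by cell. The 1699 genes picked as higher within IVF took up a median of 22.4% of a cell's UMIs in NT1 (5th to 95th percentile 18.4% to 27.0%) and 37.8% in NT2 (33.1% to 43.1%). Of the NT2 cells, 99.6% lay above every NT1 cell, while 41.1% of the NT1 cells lay below every NT2 cell. The 941 genes picked as lower took up 5.63% in NT1 and 2.21% in NT2, and 98.0% of the NT2 cells lay below every NT1 cell and 79.2% of the NT1 cells above every NT2 cell. With genes picked within NT, the median share in IVF cells was 15.2% in IVF1 and 31.0% in IVF2 for the higher genes, and 4.31% and 1.15% for the lower genes. Of the IVF1 cells, 81.8% lay below every IVF2 cell for the higher genes and 77.7% above every IVF2 cell for the lower genes, against 95.2% and 96.9% of the IVF2 cells on the other side of every IVF1 cell. Cells of a library are not replicates, so the comparison remains that of 1 library with 1 library in each treatment.

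The same question was asked within groups of like cells, found by clustering the 4 libraries after integration. Of 11 clusters, 8 had at least 10 cells in every library, together 3167 cells (93.0%). The clusters left out were uneven between libraries. Cluster 6 had 7 (IVF1), 16 (NT1), 129 (IVF2) and 41 (NT2) cells. Cluster 9 had 6, 17, 0 and 0 in the same order, and cluster 10 had 22 cells, all of NT2. Tested clusters were uneven too: in that order cluster 0 had 112, 153, 479 and 195 cells, and cluster 2 had 61, 40, 88 and 200. The part of the mix of cells in the whole-library differences was not tested. Clusters are numbered and not named, since no marker could be matched. Experiment genes at an adjusted p of 0.05 in edgeR made up 42.4% of the genes tested in cluster 0, 31.8% in cluster 1, 10.5% in cluster 2, 28.9% in cluster 3, 34.3% in cluster 4, 2.47% in cluster 5, 16.9% in cluster 7 and 27.6% in cluster 8. Cluster 5, with 211 genes called, held only 14 cells of IVF2, but cluster 7 held only 11 of IVF1 and cluster 8 only 16 of NT2. A cluster had 211 to 6083 calls for the experiment and 0 to 37 for NT against IVF. Summed over the 8 clusters there were 24650 and 123 calls. These sums count a gene once for each cluster in which it was called, so they are not numbers of different genes. For genes of at least 100 CPM, the median absolute fitted log2 change was 0.55 to 0.72 for the experiment and 0.13 to 0.23 for the treatment. The ranges over clusters did not overlap, but treatment pairs that went opposite ways would partly cancel in a fitted change.

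The counts of single clusters were not stable. When the same clustering code was run with another linear-algebra kernel, 96.3% of the cells stayed with the best-matching cluster, but only 7 clusters could be tested, and their called shares ran from 8.08% to 42.6%. The sums, counted in the same way over clusters, were then 25449 calls for the experiment and 294 for the treatment. The larger number of experiment calls was thus found in both runs, whereas an order among the clusters should not be read from these values. In the second run cluster 4 had 2754 calls for the experiment and 164 for the treatment. It did not hold for every cluster at a coarser clustering resolution of 0.3. There, cluster 5 had 0 calls for the experiment and 1 for the treatment, with 9556 genes tested. Genes detected per cell at 6000 UMIs differed the same way in all 8 clusters of the first run, by -435.5 to -355.5 genes. In each of them the lower of the experiment 1 medians lay above the higher of the experiment 2 medians.

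The 2 genes with the largest fold change in each direction were read singly. They were taken from called genes of at least 10 CPM with the same sign in both treatments. They are extremes: the median log2 fold change was 1.37 over all genes called higher and -1.51 over those called lower. The edgeR test gives no SE, so each SE below is the absolute log2 fold change over the square root of its F statistic. DESeq2 gave larger SEs, of 0.56 (Xelaev18024167m.g), 1.97 (Xelaev18000342m.g), 1.48 (Xelaev18027380m.g) and 0.98 (Xelaev18032792m.g). Xelaev18024167m.g had 6 (IVF1) and 4 (NT1) UMIs in experiment 1, but 2330 (IVF2) and 2063 (NT2) in experiment 2. Its level was 0.306, 0.242, 39.8 and 41.4 CPM, near 0 in both libraries of experiment 1 and alike in both of experiment 2. The log2 fold change was 7.73 ± 0.36 (SE, edgeR adjusted p = 0.000446), and the ratio of experiment 2 over experiment 1 on library totals was 146, with a 95% counting interval of 79.5 to 305.5. It was detected in 76.5% of the cells of IVF2 and 73.9% of those of NT2, and at 6000 UMIs per cell in 20.0% and 21.2%. In the 8 clusters its level was 32.3 to 56.1 CPM in experiment 2 and at most 2.62 CPM in experiment 1, so it was not tied to a cluster.

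Xelaev18000342m.g, the other gene higher in experiment 2, did not behave alike in the 2 treatments. It had 2 UMIs in each library of experiment 1, 123 in IVF2 and 6408 in NT2, or 0.102, 0.121, 2.10 and 128.7 CPM. Its mean of 32.8 CPM met the limit of 10 CPM through NT2 alone, so its choice as a named gene rests on that library. NT2 stood far above IVF2, and the log2 difference was 2.44 within IVF and 7.96 within NT. These pair values have 0.5 CPM added to each level, which draws them towards 0 at levels as low as those of experiment 1. The fitted log2 fold change of 9.28 ± 0.82 (SE, edgeR adjusted p = 0.00185) is not on that scale and lies above both. It comes from a model with 1 experiment term for both treatments and does not describe either pair. Without NT2 it was 4.82 and without IVF2 10.60. Its highest cluster level was 605.3 CPM, in NT2 cells of cluster 5, against 4.62 CPM in IVF2 cells of that cluster.

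Xelaev18027380m.g was the gene with the largest fall. It had 589 UMIs in IVF1 and 525 in NT1, against 1 in IVF2 and 0 in NT2, although the libraries of experiment 2 were larger. Levels were 30.1 and 31.7 CPM in experiment 1 and 0.0171 and 0 CPM in experiment 2. The log2 fold change was -10.74 ± 0.59 (SE, edgeR adjusted p = 0.000452), a fitted value that depends on the prior count at so few UMIs. It was -12.53 without IVF2 and -9.93 without NT2. On library totals the ratio of experiment 1 over experiment 2, which rests on 1 UMI in experiment 2, was 3343, with a 95% counting interval of 599 to 132147. The gene was detected in 48.8% of IVF1 cells and 44.0% of NT1 cells, and in 0.0784% of IVF2 cells.

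Xelaev18032792m.g showed the same kind of pattern. Its UMIs numbered 497 (IVF1) and 327 (NT1) in experiment 1, but 3 (IVF2) and 0 (NT2) in experiment 2, or 25.4, 19.8, 0.0512 and 0 CPM. Its log2 fold change was -9.02 ± 0.62 (SE, edgeR adjusted p = 0.000928), again a fitted value that depends on the prior count. It was -12.08 without IVF2, -8.06 without NT2 and -7.88 with libraries thinned to the smallest total. On library totals the ratio of experiment 1 over experiment 2, which rests on 3 UMIs in experiment 2, was 824 (95% counting interval 281 to 4005). It was found in 50.2% of IVF1 cells and 37.9% of NT1 cells. Counting intervals cover counting error only.

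**Figure D5:**
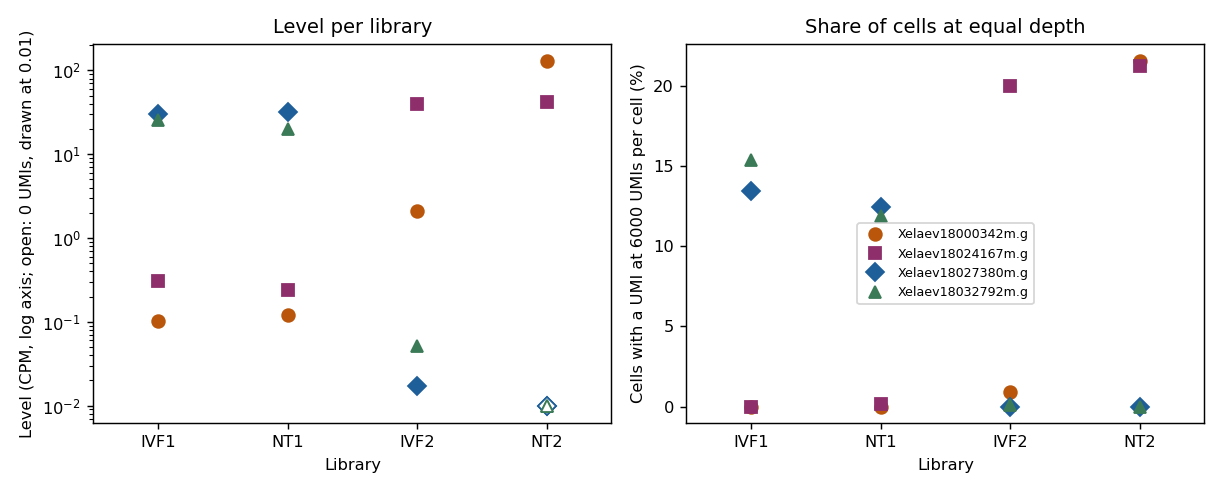
The 4 named genes by library. Left, level in CPM on a log axis, with libraries at 0 UMIs drawn open at 0.01. Right, the percentage of cells with a UMI after thinning each cell to 6000 UMIs. Xelaev18024167m.g is at 39.8 and 41.4 CPM in experiment 2, Xelaev18000342m.g reaches 128.7 CPM in NT2 and 2.10 CPM in IVF2, and the other genes are at 0.0512 CPM or less in experiment 2.

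Some genes had no UMI at all in either library of an experiment. In experiment 1 this held for 2150 genes that had a UMI in experiment 2, but 2045 of them had fewer than 20 UMIs there, and experiment 2 held 108384739 UMIs against 36120555 in experiment 1. Of the 177 with at least 3 UMIs in each library of experiment 2, only 11 had a level of at least 1 CPM there. The most abundant of the 2150 genes had 629 UMIs in IVF2 and 549 in NT2, and was found in 33.3% and 36.1% of the cells. On library totals its level was at least 131-fold higher in experiment 2, against a floor of 3 UMIs over both libraries of experiment 1, and with TMM at least 192-fold. The next had 471 UMIs in IVF2 and 11 in NT2, and the third 2 and 210, so that these were largely genes of a single library. In the other direction, 903 genes had no UMI in experiment 2. Of the 35 with at least 3 UMIs in each library of experiment 1, 7 were at 1 CPM or more there. The most abundant had 225 UMIs in IVF1 and 186 in NT1, on library totals at least 411-fold above the floor of 3 UMIs over both libraries of experiment 2 and with TMM at least 280.1-fold.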

How the data were processed

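The authors deposited whole-number UMI counts per gene and cell, 1 table per library, with 31179 genes. Per the submitters' notes they used Cell Ranger 2.2.0; the study's methods add a later version for the later chemistry, without saying which library had which, and name STAR alignment to the X. laevis v9.1 genome and cells of more than 6000 UMIs and 2000 genes, limits that bound any comparison of shallow cells. All cells in the tables were kept, no doublet caller was run, and 0 columns belonged to other series. By its methods the study later removed a cluster with low UMI and gene counts and some outlier cells, which was not repeated here. Here UMIs were summed per library and fitted in edgeR 4.0.16 (R 4.3.3; filterByExpr, TMM, quasi-likelihood, treatment plus experiment), with an adjusted p of 0.05 over all genes. Differences between pairs used log2(CPM + 0.5) after TMM. DESeq2 1.42.0, other scalings, no filter, thinned UMIs, equal cell numbers and each library left out were alternatives, and cells of 20000 to 40000 UMIs and a second linear-algebra kernel were added after seeing the data. Clusters came from Seurat 5.3.0 (2000 variable genes, 20 dimensions, resolution 0.5, with 0.3 and 0.8 as alternatives). The tests were tried on simulated counts with no difference between treatments, unlike these libraries, so that trial is no support for the calls here. Total UMIs were 19577320, 16543235, 58592836 and 49791903 (IVF1, NT1, IVF2, NT2).

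The members and lists were chosen with earlier results of these data known. The replicate number marks the experiment, which the study describes as 2 separate runs of IVF with NT. Its methods control for these runs, so same-numbered libraries were treated as paired. The Pearson correlation of 0.801 across genes between the 2 experiment differences is a result here and no ground for the pairing. Named genes were the 2 with the largest fold change in each direction among called genes of at least 10 CPM with the same sign in both treatments. The planned gene lists and cell type markers could not be applied, because 0 identifiers matched the reference table.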

Additional observations from a re-analysis of the deposited data

Results flagged for a closer look

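Within IVF and within NT, 12 genes of at least 10 CPM moved by more than 1 log2 unit in opposite directions between the experiments. All 12 were lower in IVF2 than in IVF1 and higher in NT2 than in NT1, and 0 went the other way. Their levels were 6.49 to 35.7 CPM in IVF1, 2.72 to 30.8 CPM in NT1, 0.410 to 11.2 CPM in IVF2 and 10.1 to 138.5 CPM in NT2. The largest gap between the 2 treatments was 5.31 log2 units. These 12 were picked for their opposite movement out of 8524 genes. By the same limit, 1405 genes moved the same way in both treatments. The difference was not tested, since each treatment has 1 library per experiment.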

How the results depend on the processing

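The experiment count stayed within 1.5 times of 5638 under DESeq2 size factors (5583), library totals (7491), no filter (6915), DESeq2 (4876), equal cell numbers (4932), thinned UMIs (5808), cells of 20000 to 40000 UMIs (5214) and no treatment term (4792), but ran from 0 to 8549 when each library was left out in turn, where without IVF1 it was 0 and without NT1 14. The count for NT against IVF, 0 with the replicate block of the experiment and 0 with no replicate block (186 genes at an unadjusted p under 0.05), was 437 with no filter, 109 with DESeq2, 31 with thinned UMIs, 30 with cells of 20000 to 40000 UMIs, and 0 to 157 with a library left out. These counts come from unlike numbers of genes tested, so they are not shares. The main fit, the other scalings, DESeq2 and the fits without a treatment term or replicate block tested 18674 genes. The number was 27451 with no filter, 17353 with equal cell numbers, 17029 with thinned UMIs and 15071 with cells of 20000 to 40000 UMIs. With a library left out it ran from 18311 to 20106. The 1405 genes moving the same way became 2622 at 1 CPM, 344 at 100 CPM, 3589 at 0.5 log2 units and 130 at 2 log2 units. Genes per cell differed by -575.5 at 10000 UMIs and by 501.5, reversed, with no thinning. The median count over clusters, 3362.5, was 1473.5 with DESeq2, 4015 at a clustering resolution of 0.3 and 2766 at 0.8. Genes with no UMI in an experiment became 5363 (experiment 1) and 2876 (experiment 2) when at most 3 UMIs were allowed. Of 47 alternatives for the 4 named genes, 42 kept direction and call, 5 lost the call (all 4 genes without IVF1 and Xelaev18000342m.g without NT1) and 0 reversed.

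Depth limits the rare genes most, and 2 libraries per experiment limit every test. The fits without a library hold either the experiment or the treatment term, since no residual degree of freedom would remain with both.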
